A study of Ovis aries with 14 samples.

Results

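Meiotic genes were high in 3 fetal sheep ovaries and low in 3 others, and both sets held control and testosterone-exposed fetuses. The series sequenced RNA from whole frozen ovaries of wild type Suffolk sheep in 14 samples. Of these, 6 came from fetuses at day 90 of gestation (3 controls and 3 testosterone samples) and 8 from adults at year 2 (4 controls and 4 testosterone samples). Exposed animals came from ewes injected in the muscle with testosterone propionate in cottonseed oil between days 30 and 90 of pregnancy. What the control mothers received, and how the sampled fetuses relate to mothers and litters, was not given in the sources used here. Thus the p-values below measure only the spread between these samples. Testosterone was given to the mother, so exposure was not limited to the fetal ovary.

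The high set was made up of control 1, control 2 and testosterone 1, and the low set of control 3, testosterone 2 and testosterone 3. This is 6 of the 14 samples, and every fetal sample falls in one set or the other. Members were chosen by a measured value, the mean log2 level of meiosis genes in these same libraries. It follows that the difference between the sets is given as a description, with no test, and that meiotic genes are not independent evidence for it. The sets also differ in treatment, since 2 of the 3 high libraries are controls and 2 of the 3 low libraries are testosterone samples.

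Female germ cells in the fetal ovary stop dividing by mitosis and enter meiosis, in which each pair of chromosomes is cut, aligned by a protein axis and joined by the synaptonemal complex. After recombination the cells arrest as oocytes, become enclosed by pregranulosa cells in primordial follicles, and express genes of the egg coat and of maternal stores. Germ cells of different stages lie in the same fetal ovary in sheep and in other large mammals, so a whole ovary library mixes them. The PIWI-interacting RNA (piRNA) pathway, which silences transposons in germ cells, runs alongside both stages.

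Values are normalized counts: the reads of a gene over the size factor of its library, which makes libraries of different depth comparable. They are listed for control 1, control 2 and testosterone 1 in the high set, and for control 3, testosterone 2 and testosterone 3 in the low set. Over the 41 measured genes of a meiotic list of 51, the mean log2(value + 1) was 8.41, 8.96 and 8.46 in the high set and 7.41, 7.70 and 7.42 in the low set. Control 1, the lowest of the high set, and testosterone 2, the highest of the low set, were the libraries next to the division, 0.72 apart. The separation was less clear in the 3 genes given as markers of the split. The meiotic cohesin SMC1B stood at 2204, 3359 and 2205 in the high set and at 2153, 1458 and 1533 in the low set, so that control 3 fell just short of control 1. The piRNA helicase MOV10L1 stood at 1344, 1599 and 1249.8 against 1401, 946 and 981, and control 3 lay above control 1 and testosterone 1. PIWIL2, an Argonaute protein that binds piRNAs, stood at 857, 1221 and 796 against 989, 571 and 826, and the sets overlapped. Of the 3 markers 1 therefore separated the sets, and the libraries are called high or low here for the mean of the meiotic list alone.

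Recovered depth was 24.1 to 26.6 M reads in the high set and 26.1 to 28.4 M reads in the low set, and the log2 values of any 2 fetal libraries correlated across genes at 0.971 to 0.985. In RNA from whole ovaries, fewer cells of a type and less RNA per cell cannot be told apart. A gene was called where the 3 high and 3 low libraries did not overlap and the mean log2(value + 1) differed by at least 1.5-fold. Of 16513 genes, 528 (3.20%) were called higher and 146 (0.884%) lower in the high set, and the median difference over all genes was -0.01 on the log2 scale. Absence of overlap alone held for 1426 genes (8.64%) in the higher and 877 (5.31%) in the lower direction. The lower count was the more sensitive to single libraries: it was 373 without control 1, 233 without control 2, 290 without control 3, 276 without testosterone 1, 594 without testosterone 2 and 224 without testosterone 3. The fetal table holds genes with a mean of about 10 or more, and 96 of the 528 genes had a low-set mean under 10, so they entered through the high set only. In the same way 24 of the 146 had a high-set mean under 10.

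**Figure D1:**
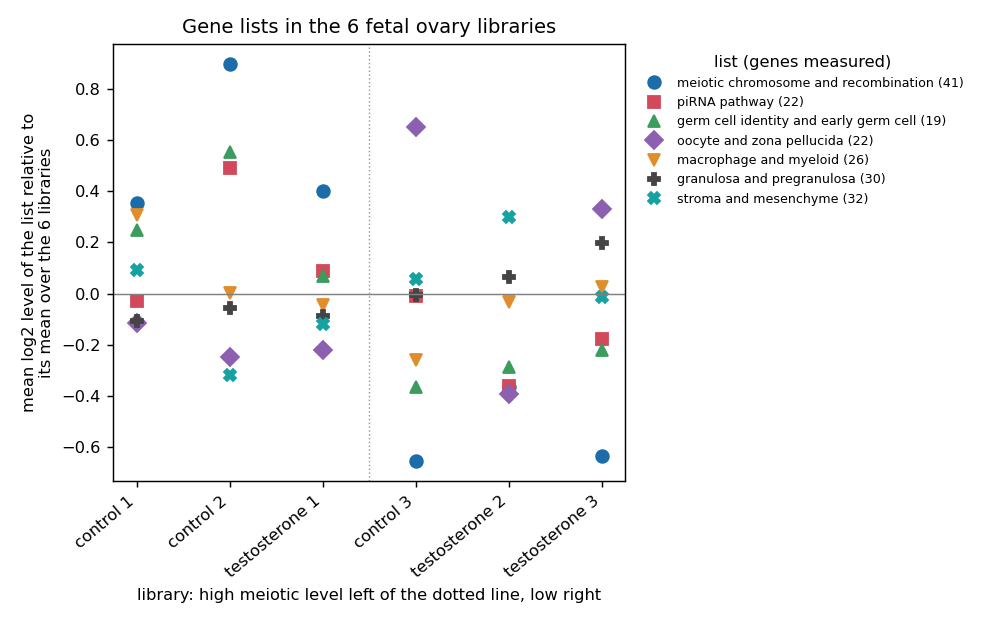
Mean log2(value + 1) of 7 gene lists in each of the 6 fetal ovary libraries, relative to the list's mean over the 6, with the number of measured genes in the key; high meiotic libraries are left of the dotted line. The oocyte list is at its highest in control 3 (0.65) and testosterone 3 (0.33), the libraries with the lowest meiotic level, and at its lowest in testosterone 2 (-0.39).

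Meiotic genes were higher in the high set, as the rule requires, but not all to the same degree. Of 41 measured members 27 were called higher and none lower, with a median difference of 1.17 on the log2 scale and positive differences in 39. Because these genes set the split, nothing is read from the comparison of 27 of 41 with 3.20% of all genes. Control 2 had the highest value of 32 of the 41 genes. The count stayed between 26 and 30 when any 1 of the 6 libraries was left out.

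Among genes of meiotic entry, MEIOC, which holds germ cells in the meiotic programme, stood at 696, 933 and 531 in the high set and 143, 243 and 119 in the low set, a difference of 2.12 on the log2 scale. Such log2 differences, high minus low, follow other genes in parentheses. STRA8, the retinoic acid-induced gene of meiotic entry, stood at 128, 275 and 159 against 49, 84.1 and 68.9 (1.42). YTHDC2, the RNA helicase that works with MEIOC, stood at 1625, 1847 and 1433 against 1174, 1266 and 927, without overlap but at 0.55 short of the 1.5-fold mark. The high libraries were thus above the low ones for all 3 genes, by a wider margin for MEIOC and STRA8 than for YTHDC2.

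Some genes of break formation and strand exchange differed widely. SPO11, the enzyme that cuts DNA to begin recombination, stood at 90.8, 143 and 57.8 against 9.99, 35.5 and 14.2 (2.33). DMC1, the meiosis-specific recombinase, stood at 84.4, 187 and 78.4 against 13, 27.4 and 21.7 (2.38). For both, each high library exceeded each low one, and testosterone 2 was the nearest of the low set. SPATA22, a meiotic single-stranded DNA-binding factor, stood at 497, 713 and 421 against 149.9, 203 and 110.5 (1.82), and MCMDC2, a helicase-like recombination protein, at 33.1, 60.7 and 27.4 against 8.0, 7.09 and 9.44 (2.10). With a low-set mean of 8.18, under 10, MCMDC2 entered through the high set only. Other genes of the same steps hardly differed. MEI4, part of the break machinery, stood at 201, 296 and 223 against 221, 217 and 222, and PSMC3IP, an accessory factor of DMC1, at 595, 584 and 726 against 829, 536 and 715, with control 3 the highest of the 6 libraries.

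The chromosome axis was divided in the same way. HORMAD1, an axis protein that marks unpaired chromosomes, had the largest difference of the list (2.52), with 263, 457 and 186 in the high set and 37, 70.9 and 42.5 in the low set. RAD21L1, a meiotic cohesin subunit, stood at 34.2, 63.6 and 28.4 against 5.0, 9.12 and 5.67 (2.46), and the low libraries held fewer than 10 normalized counts each. With a low-set mean of 6.59 RAD21L1 entered through the high set only. By contrast REC8, the other meiotic cohesin subunit of its kind, which stays on chromosomes into the later oocyte, stood at 558, 652 and 562 against 759.6, 394 and 783 (-0.07). Control 3 and testosterone 3, both in the low set, had the highest REC8 values. STAG3, a further cohesin subunit, overlapped as well, at 3841, 5296 and 5517 against 3919, 3019 and 3652.

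Synaptonemal complex genes were higher in the high set in most cases. SYCP1, the filament that bridges paired chromosomes, stood at 491, 903 and 726 against 151, 442 and 194 (1.54), with testosterone 2 close to control 1. SYCP3, of the lateral element, stood at 899.8, 1005 and 977 against 399.8, 606 and 459.8 (0.99), and TEX12, of the central element, at 309, 300.4 and 276 against 134, 134 and 124 (1.17). The low libraries were close to each other for TEX12 and farther apart for SYCP1. SYCP2, SYCE1, SYCE3 and C14orf39 were called higher too, with differences of 1.06, 1.12, 1.20 and 1.96. SYCE2, at 0.58, did not overlap but fell short of 1.5-fold. Of the genes that tether chromosome ends to the nuclear envelope, MAJIN stood at 139, 241 and 197 against 59, 73.9 and 57.6 and TERB1 at 152, 226 and 142 against 54, 86.1 and 51, both without overlap. Among crossover genes TEX11 stood at 2351, 2977 and 1651 against 596, 1064 and 505 (1.72), and MSH4, HFM1 and CCNB1IP1 were called higher with differences of 1.57, 1.22 and 1.22. MLH3, a mismatch repair protein of late crossovers, did not reach 1.5-fold, at 0.37.

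**Figure D2:**
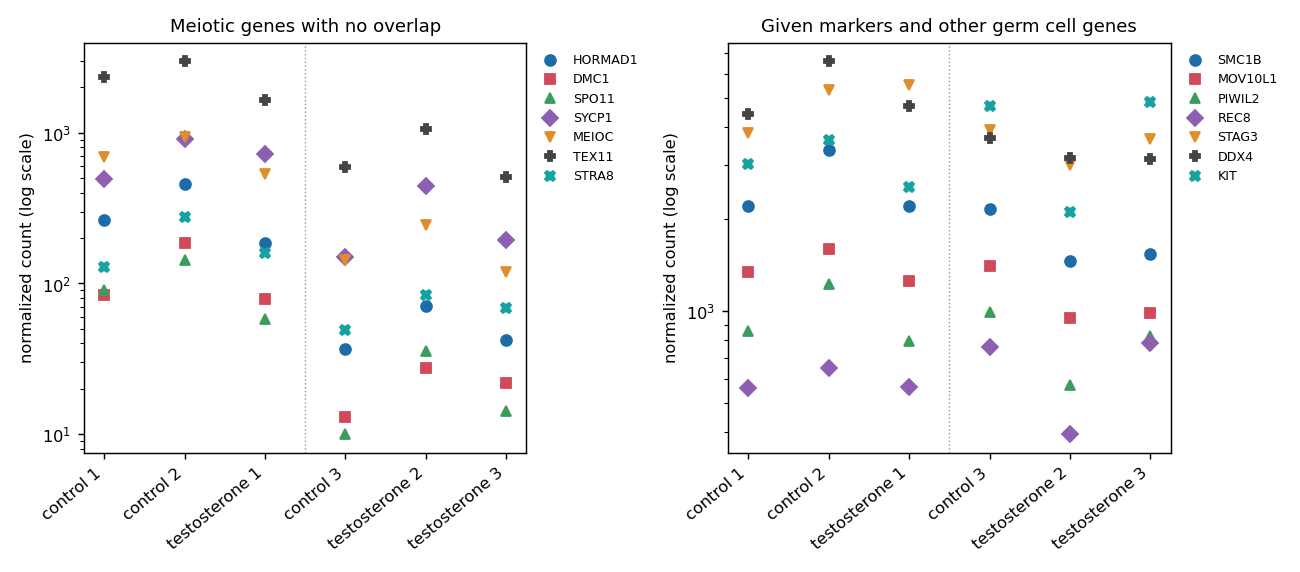
Normalized counts (log axis) of 7 meiotic genes without overlap between the sets (left) and of 7 given markers and other germ cell genes (right) in the 6 fetal libraries, each point 1 library; high meiotic libraries are left of the dotted lines. DMC1 lies at 78.4 to 187 in the high set and 13.0 to 27.4 in the low set, while REC8 and KIT are highest in control 3 and testosterone 3.

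Some piRNA pathway genes followed the split, but the level of the list as a whole did not separate the sets. Of 22 measured genes from a list of 24, 3 were called higher (13.6%, against 3.20% of all genes) and none lower, the median difference was 0.33 and 20 differences were positive. DDX4, the germ cell RNA helicase also called VASA, stood at 4415, 6579 and 4681 against 3679, 3163 and 3156 (0.63). MAEL, a piRNA factor of transposon silencing, stood at 3128, 3491 and 3131 against 2602, 1615 and 2362 (0.59), and ASZ1, which anchors piRNA processing at mitochondria, at 470.2, 606 and 477 against 301, 329 and 231 (0.85). For these 3 genes the lowest high library exceeded the highest low library, and for DDX4 and MAEL control 3 was the nearest of the low set. PIWIL1, TDRKH, RNF17 and TDRD7 did not overlap either, at smaller differences of 0.53, 0.50, 0.57 and 0.25. PIWIL3 lay the other way, at 486, 441 and 309.7 against 608, 593 and 458. Testosterone 2 had the lowest value of 13 of the 22 genes. The number called depended on single libraries, with 8 genes without control 1, 5 without control 3 and 1 without control 2. Without control 2 the share was 4.55%, against 3.47% of all genes, so it was near the background. The summed normalized counts of the list were 29059, 41419 and 30438 in the high set and 29984, 21312 and 25743.5 in the low set. Control 3 thus lay above control 1, and control 2 stood well above the other libraries.

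Genes of germ cell identity were mixed. Of 19 measured from a list of 35, 5 were called higher (26.3%, against 3.20% of all genes), none was called lower, and the median difference was 0.17. The list holds genes tied to meiosis, such as DMRTB1, so its share above that of all genes is not independent evidence for the split. Without control 2 the median was 0.08, without testosterone 2 it was 0.09, without control 3 0.30 and without testosterone 3 0.27. There was 1 gene called lower without testosterone 1 and 2 without testosterone 2. TEX101, a surface protein of germ cells, stood at 209, 196 and 97 against 19, 30.4 and 20.8 (2.74). DMRTB1, a transcription factor of the step from mitosis to meiosis, stood at 128, 108 and 75.5 against 23, 27.4 and 25.5 (1.97), and its relative DMRT1 at 192, 342 and 225 against 54, 133 and 109.5 (1.40). The low libraries were close to one another for DMRTB1, while control 3 was the lowest for DMRT1. BOLL, an RNA-binding protein of the DAZ family, stood at 276, 371 and 276 against 108, 116 and 109 (1.45). TKTL1, a transketolase-like enzyme, stood at 7993, 10868 and 8735 against 4167, 4864 and 4181 (1.05). Other general germ cell genes overlapped, unlike DDX4 and TKTL1. DND1, an RNA-binding protein of germ cell survival, stood at 967, 1089 and 1086 against 1120.4, 669.6 and 1079, and SALL4, a transcription factor of germ cells, at 898, 1055 and 827 against 1101, 506 and 978. For both genes the sets overlapped, and testosterone 2 alone stood low.

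KIT, the receptor found on early germ cells and again on oocytes, was highest in control 3 and testosterone 3, at 3022, 3632 and 2548 in the high set and 4713, 2109 and 4852 in the low set. Its values covered the high set from both sides, since testosterone 2 was the lowest library.

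Oocyte genes lay mostly the other way from the meiotic genes. Of 22 measured from a list of 43, 2 were called lower in the high set (9.09%, against 0.884% of all genes), none was called higher, and the median difference was -0.35, with negative differences in 18. ZP2, a protein of the egg coat, stood at 3395, 3058 and 2978 in the high set and 9956, 4565 and 6104 in the low set (-1.05). ZP4, another coat protein, stood at 6428, 2601 and 4689 against 21646, 7152 and 15278 (-1.64). Every low library exceeded every high one for both, and control 3 was the highest.

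Further oocyte genes were high in control 3 and testosterone 3 and not in testosterone 2. NLRP5, a maternal factor of the egg cortex, stood at 2626, 1777 and 1612 against 6057, 2417 and 5591 (-1.15). PADI6, needed for the lattices of the oocyte cytoplasm, stood at 13484, 12589 and 11655 against 26865, 11196 and 20962, and GDF9, the growth factor by which oocytes act on follicle cells, at 2195, 2046 and 2256 against 3613, 1966 and 3241. BMP15, the partner of GDF9, stood at 119.7, 28.4 and 36.3 against 257, 58.8 and 147. In these 4 genes testosterone 2 lay within the range of the high set or, for PADI6 and GDF9, below it. NLRP9, NLRP14, ZAR1L, H1FOO and RSPO2 were likewise highest in control 3. LHX8, an early oocyte transcription factor, differed less, at 3666, 4456 and 5419.6 against 5087, 2577 and 5324, and testosterone 2 was again the lowest.

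The oocyte list therefore divided the low set. It was highest in control 3 for 14 of 22 genes and lowest in testosterone 2 for 11 of 22. Summed over the list, normalized counts were 47436, 43309 and 45492 in the high set and 100100.0, 43272 and 78362 in the low set, where testosterone 2 lay just under the lowest high library. Without testosterone 2, 13 of the 22 genes were called lower (59.1%), while the share of all genes called lower rose to 3.60%. Without control 1, 6 were called lower (27.3%), against 2.26% of all genes, and without any 1 of the other 4 libraries the number was 2. The list's median went from -0.35 to -0.14 without control 3 and to -0.64 without testosterone 2, and 1 gene was called higher without control 1 or control 3. Testosterone 2 was also low in general germ cell genes such as SALL4 and in 13 piRNA genes, and the part this played in its oocyte values was not tested.

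**Figure D3:**
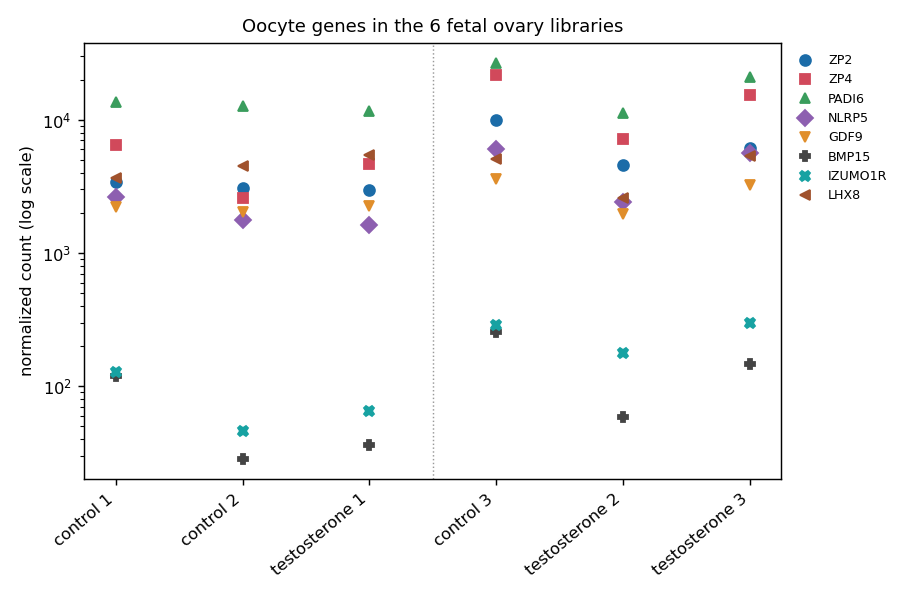
Normalized counts (log axis) of 8 oocyte genes in the 6 fetal libraries, each point 1 library, with high meiotic libraries left of the dotted line. ZP2, ZP4 and IZUMO1R are higher in all 3 low libraries, whereas NLRP5, PADI6, GDF9 and BMP15 are high in control 3 and testosterone 3 but not in testosterone 2.

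Outside the germ cell lists, the named genes with the widest gap in the high direction included several known from meiosis or the testis. DMRTC2, a DMRT family member needed in meiotic prophase, stood at 477, 608 and 412 against 69, 132 and 100.1 (2.33). BHMG1, also called MEIOSIN, the partner of STRA8, stood at 144, 246 and 162 against 15, 63.8 and 29.3 (2.51). C1orf146, also called SPO16, of crossover formation, stood at 102, 136 and 109.8 against 24, 39.5 and 33, and RAD51AP2 at 39.5, 111 and 67.6 against 3.0, 15.2 and 3.78. In all 4 the lowest high library lay more than 1 log2 unit above the highest low library, which was testosterone 2 each time. RAD51AP2 had a low-set mean of 7.32, under 10, so it entered through the high set only. ZNF541, a zinc finger protein of meiotic prophase, stood at 658, 893 and 670.5 against 242, 287 and 238 (1.52).

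The remaining names of widest gap had other or less certain roles. ELAVL3, an RNA-binding protein best known from neurons, stood at 196, 184 and 162 against 41, 59.8 and 30.2, and was the 1 gene called among 13 measured nerve genes (7.69%, against 3.20% of all genes). LYPD4, a surface protein of the TEX101 family, stood at 81.2, 73.4 and 40.2 against 13, 11.1 and 12.3, EFCAB3 at 140.0, 191 and 122 against 46, 39.5 and 30.2 and ENTHD1 at 413, 429 and 317 against 106, 148 and 126. Each of these 3 separated the sets without overlap. SLC17A7, a vesicular glutamate transporter, stood at 46, 90.0 and 39.2 against 7.0, 17.2 and 0.94, and LDHAL6B, a lactate dehydrogenase-like enzyme, at 47, 63.6 and 41.2 against 18, 14.2 and 6.61. CYP2B6, ASB14, NPHS1, DNAH8, CCDC152 and KLHL35 were called higher as well, at differences of 2.45, 2.04, 1.88, 1.97, 2.13 and 2.25, all from fewer than 70 normalized counts in any library. Apart from CCDC152, these had low-set means under 10 (3.30 to 8.62) and so entered through the high set only, as did SLC17A7 (8.39).

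The pattern most like the mean of the meiotic list was found in ZNF541 (Pearson 0.991), SYDE2 (0.991), BCLAF3 (0.990), GSTO2 (0.990), SCML2 (0.988), BBOF1 (0.988), CCDC73 (0.988), TRMT11 (0.988), PRODH2 (0.987) and BRDT (0.986). Likeness was measured over the 6 fetal libraries among named genes called higher outside the germ cell lists, so high coefficients follow in part from the choice. BRDT, a bromodomain protein of male germ cells, stood at 580.3, 729 and 577 against 295, 314 and 255, and SCML2, a germline Polycomb protein, at 773, 1099 and 774 against 358, 529.8 and 365. Both were highest in control 2, as was the meiotic mean.

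Of the 528 genes called higher, 308 have a name, and 220 are listed by identifier only. There were 27 on the meiotic list, 35 on any of the 4 germ cell lists and 16 on the other 20 lists, so that 477 were on none. A difference of at least 2-fold was found in 298 and of at least 4-fold in 66. The 528 genes rested on fewer counts than most, with a median of 55.5 normalized counts against 564 for all genes. Control 2 was the highest library for 289 of them, control 1 for 127 and testosterone 1 for 112, and testosterone 3 was the lowest for 277.

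Some small nuclear RNA and replication histone rows, whose transcripts mostly lack a poly(A) tail, separated the sets. Of 157 rows with an Rfam name, the names of structured RNA families, 8 were called higher (5.10%) and 1 lower (0.637%), against 3.20% and 0.884% of all genes. All 4 rows of RF00003, the U1 small nuclear RNA of the spliceosome, were called higher, the one of widest gap with 20.3, 31.3 and 15.7 against 3.0, 3.04 and 1.89 normalized counts. The 1 row of RF00004, the U2 RNA, was called higher too, while 1 of 4 rows of RF00026, the U6 RNA, was called lower. Low-set means were under 10 for RF00004 (6.64) and for the RF00003 rows at 4.36, 2.64 and 5.97. These rows therefore entered through the high set only. Of 13 rows with a HIST name 5 were called higher (38.5%) and 8 were not called. HIST2H2BF, a histone H2B gene, stood at 1760.1, 1415 and 2271 against 706, 948 and 509. HIST1H2AH, HIST1H2BD, HIST3H2A and HIST3H3 were the other 4 called higher, and HIST1H2AH, with a low-set mean of 7.33, entered through the high set only. These genes have near-identical copies, so their counts are uncertain. Their part in the other differences was not tested.

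Of the 146 genes called lower in the high set, 110 have a name, 2 were on the oocyte list and 141 on no list. PCSK2, a protease that processes prohormones, had the widest gap, at 3.21, 13.7 and 4.90 against 43, 90.2 and 52.9 (-3.07), and like C6orf15, IQCJ and FRMPD2 it entered through the low set only. IZUMO1R, the egg receptor for sperm also called JUNO, stood at 128, 46 and 64.7 against 289.8, 178 and 297 (-1.76). Unlike most oocyte genes it was high in testosterone 2 as well. CYP19, which is aromatase, the enzyme that makes estrogens, stood at 204, 98.8 and 182 against 309.8, 371 and 319 (-1.10), with control 2 the lowest.

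The other genes of widest gap in this direction covered several functions. CALB2, the calcium-binding protein calretinin, stood at 178, 152 and 91.2 against 336, 283 and 811 (-1.65), and CLSTN2, a calsyntenin, at 325, 254 and 239 against 621, 553 and 766 (-1.24). The cadherins CDH8 and CDH10 stood at 342, 171 and 196 against 489.7, 534 and 526 and at 98.3, 137 and 79.4 against 259, 213 and 330.5. Testosterone 3 was the highest library for CALB2, CLSTN2 and CDH10. TMEM114, a membrane protein, stood at 556, 466 and 712 against 1165, 1046 and 1279 (-1.03). MT3, a metallothionein, CKM, the muscle creatine kinase, and TPSB2, a tryptase of mast cells, differed by -1.38, -1.31 and -1.16. C6orf15, IQCJ, CLPS, HPCAL4, FRMPD2, TNFAIP8L1, NR0B2 and PODNL1 had log2 differences of -0.81 to -2.37, each from under 150 normalized counts in any library.

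Of 30 measured granulosa and pregranulosa genes 8 had a positive difference, against 7779 of all 16513 genes, and the median difference was -0.19. None of the 30 was called, against 3.20% higher and 0.884% lower of all genes. At these shares a list of this size holds few called genes, so 0 is near the background. Aromatase, called lower, is not in this count, because the list carries it as CYP19A1 and the table as CYP19. SERPINE2, a protease inhibitor of granulosa cells, stood at 12811, 18098 and 15096 against 14459, 21507 and 21929.8, and NOTCH2, the receptor that takes part in follicle assembly, at 10131, 10129 and 6095 against 9883, 9914 and 12209. The sets overlapped for both genes. WT1, a transcription factor of the somatic gonad, varied little, at 7573, 6564 and 7533 against 6966, 7382 and 7556, and KITLG, the ligand of KIT, ranged from 332 in testosterone 1 to 1222 in testosterone 3 without following the split. Leaving out 1 library brought the number called to at most 2.

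None of 20 genes of theca and steroid synthesis was called, again near the shares of all genes (3.20% higher and 0.884% lower). The median was -0.12. POR, the electron donor of steroid-making cytochromes, stood at 6826, 6557 and 7287 against 7434, 7299 and 6478, and the sets overlapped. CYP17A1, the androgen-forming enzyme, ranged from 6.08 in testosterone 2 to 208 in control 3 and CYP11A1, which cleaves the side chain of cholesterol at the first step, from 35.5 in testosterone 2 to 511 in control 3. For both, the 3 controls were above the 3 testosterone samples, so the order followed treatment and not the meiotic split. In the test of testosterone against control neither passed by limma (adjusted p = 0.237 for CYP17A1 and 0.223 for CYP11A1), while DESeq2 called both lower (adjusted p = 0.000224 and 3.59e-05).

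Stroma, vessels and muscle held 1 called gene, and most of their differences were negative: 27 of 32 in stroma, 16 of 20 in endothelium and 12 of 16 in smooth muscle, against 8734 of all 16513 genes. Of 32 stroma genes THY1, a surface protein of fibroblasts, was called lower (3.1%, against 0.884% of all genes), and none was called higher. THY1 stood at 689, 379 and 555 against 1109, 1074 and 703, with testosterone 3 just above control 1. The median of the list was -0.19. Control 2 had the lowest mean level of the stroma list (-0.32) and testosterone 2 the highest (0.30), relative to the mean of the 6 libraries. COL1A1, a fibrillar collagen, stood at 200998, 138594 and 213124 against 181820.0, 248234 and 206822. Of 16 smooth muscle genes and 20 endothelial genes 0 were called, with medians of -0.18 and -0.23. For lists of this size 0 is near the shares of all genes (3.20% higher and 0.884% lower). VWF, of the endothelium, stood at 4446, 3131 and 3157 against 4018, 5123 and 4364 and MYH11, of smooth muscle, at 20053, 15561 and 35277 against 15128, 25022 and 25979, both with overlap. Control 2, with the highest meiotic level, thus had the lowest stroma level, and the part this played in its meiotic values was not tested. The number of stroma genes called lower was 3 without control 1, control 3 or testosterone 2 and 2 without testosterone 1 or testosterone 3, and 3 endothelial genes were called lower without control 1.

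Among 18 genes of the surface epithelium EPCAM was called higher (5.56%, against 3.20% of all genes), at 1433, 2055 and 1525 against 1108, 1017 and 893 (0.72). EPCAM is an adhesion protein of epithelia that germ cells also carry. The median of that list was -0.14, and EPCAM was no longer called without control 2, while 3 genes were called lower without testosterone 1. Of 8 genes of the rete and mesonephros, ducts and tubules beside the fetal gonad, NPHS1 was called higher (12.5%, against 3.20% of all genes). It stood at 18.2, 25.4 and 21.6 against 4.0, 5.06 and 6.61, and with a low-set mean of 5.22 it entered through the high set only. The rest overlapped apart from GATA3 (-0.41).

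Immune genes differed in part. Of 26 macrophage and myeloid genes 5 were called higher (19.2%, against 3.20% of all genes) and none lower, with a median of 0.26. C1QB, a chain of complement C1q made by macrophages, stood at 844, 578 and 687 against 466, 464 and 335 (0.74), and C1QA and C1QC differed by 0.70 and 0.66. CD163, a scavenger receptor of macrophages, stood at 169, 112 and 154 against 54, 91.2 and 55.7 (1.12), and the lysosomal protein CD68 at 702, 585 and 581 against 373, 481 and 323 (0.68). The high libraries were above the low ones for all 5. CSF1R, the receptor on which macrophages depend, overlapped, at 1697, 1515 and 1394 against 1845, 1291 and 1699.6, and S100A9, of neutrophils, was highest in testosterone 3 (23, 30.4 and 77.4 in the low set). The median was 0.37 within controls and -0.01 within testosterone samples. The number called was 4 without control 1, 7 without control 2, 6 without control 3, 9 without testosterone 1, 8 without testosterone 2 and 1 without testosterone 3. Without testosterone 3 the share was 3.85%, against 3.42% of all genes, so it no longer stood above the background, and the median was 0.08 without control 1 and 0.17 without testosterone 3. Leaving out any library but testosterone 3 brought 1 or 2 genes called lower.

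Of 16 lymphocyte genes CCR7 and CD3G were called higher (12.5%, against 3.20% of all genes). CCR7 stood at 11.8, 15.7 and 13.7 against 7.0, 10.1 and 7.55. Its low-set mean of 8.23 was under 10, so it entered through the high set only. The median of the list was 0.00, with 0.23 within controls and -0.33 within testosterone samples. Without control 3, 1 lymphocyte gene was called. CD3G, a T cell receptor chain, stood at 347, 505 and 588 against 312, 259 and 235, while CD3E, from the same complex, overlapped at 91.9, 39.1 and 36.3 against 58, 62.8 and 64.2. Of 24 interferon and MHC genes MX2 and IRF7 were called higher (8.33%, against 3.20% of all genes), at 309.9, 518 and 383 against 266, 160.1 and 161 and at 373, 404 and 371 against 252, 190.4 and 182. Other interferon-induced genes such as MX1 and IFIT1 overlapped, and the list's median was 0.01. In the erythroid list, of which only 5 genes were measured, ALAS2 and HBQ1 were called lower (40%, against 0.884% of all genes). ALAS2, the first enzyme of heme synthesis in red cells, stood at 90.8, 51.9 and 44.1 against 125, 139.8 and 142, and HBQ1, a globin, at 11.8, 21.5 and 12.7 against 22, 22.3 and 32.1. Without testosterone 3, 1 erythroid gene was called.

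Lists for processes that accompany germ cell development held few called genes. None was called among 19 genes of retinoic acid, the signal that induces STRA8. ALDH1A2, which makes retinoic acid, stood at 6389.6, 7029 and 5608 against 7206, 6983 and 7779.5, and CYP26B1, which breaks it down, at 1530.3, 1549.8 and 1778 against 1517, 1066 and 939. CYP26B1 did not overlap, by a narrow margin, while ALDH1A2 did. None was called among 24 genes of cell division (median -0.12), 23 of apoptosis (-0.02), 23 of Notch and KIT signals (-0.08) and 20 of ribosomal proteins (-0.12). Leaving out 1 library added at most 3 calls to any of these 5 lists, the 3 being cell division genes called lower without testosterone 2. For lists of this size 0 called is near the shares of all genes, 3.20% higher and 0.884% lower. All 20 ribosomal differences were negative, yet their median was -0.10 within controls and 0.02 within testosterone samples. The ribosomal median of testosterone minus control was 0.27. By limma 19 of the 20 had an unadjusted p under 0.05 and 0 passed after adjustment. Of 23 genes of DNA methylation and germline silencing CTCFL, the germline relative of CTCF, was called higher (4.35%, against 3.20% of all genes). It stood at 27.8, 15.7 and 13.7 against 7.0, 2.03 and 0, and with a low-set mean of 3.01 it entered through the high set only. DNMT1 and DNMT3B overlapped.

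Immediate early genes, which respond fast to stimulation and to handling of tissue, did not follow the split. FOSL1 was the 1 of 22 called higher (4.55%, against 3.20% of all genes), at 23.5, 33.3 and 27.4 against 17, 14.2 and 14.2, and 3 were called without control 2 and 2 without control 3. The median was -0.52 within controls and 0.84 within testosterone samples. Of 10 mitochondrially encoded genes ND1 and ATP8 were called higher (20%, against 3.20% of all genes). Differences were positive in 9 of the 10, and the median was 0.28 over all libraries, 0.34 within controls and 0.33 within testosterone samples. ND1 stood at 19.2, 20.5 and 19.6 against 6.0, 13.2 and 7.55, and with a low-set mean of 8.91 it entered through the high set only. ATP8, a subunit of the mitochondrial ATP synthase, stood at 6392, 7810.4 and 6702 against 5939, 63.8 and 6013, so that most of its difference came from testosterone 2, and 1 gene was called without that library.

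**Figure D4:**
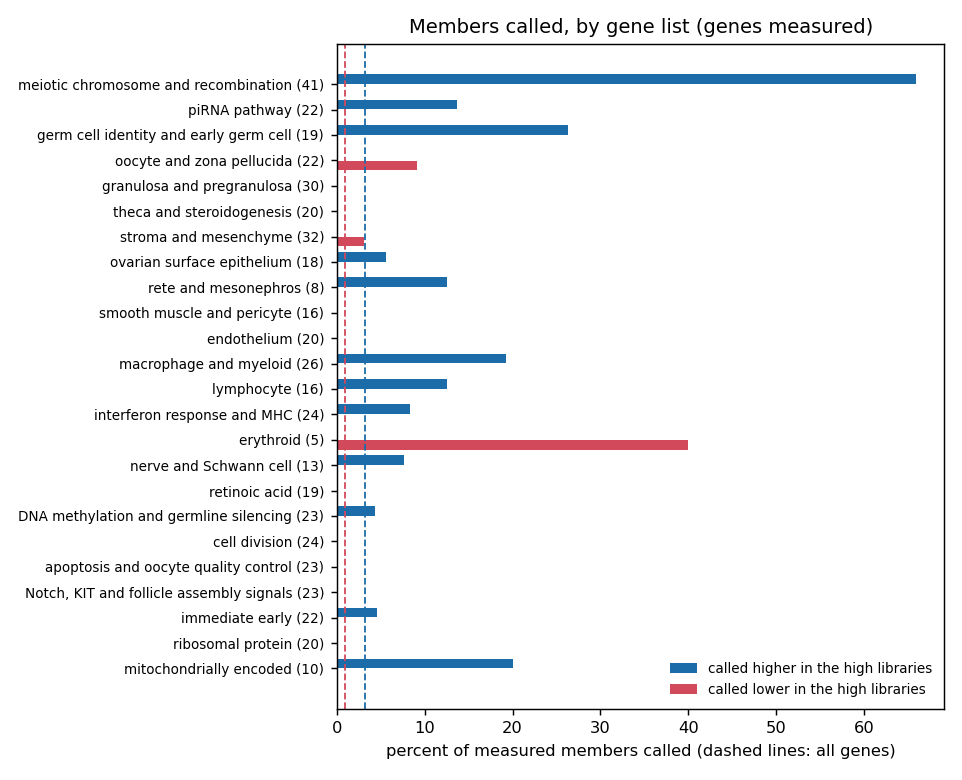
Percent of the measured genes of each of 24 lists called higher (blue) or lower (red) in the high meiotic libraries, with dashed lines at the shares of all genes, 3.20% and 0.884%. The meiotic list, which set the split, reaches 65.9%, germ cell identity 26.3%, mitochondrially encoded genes 20%, macrophage genes 19.2% and oocyte genes 9.09% lower, and the erythroid bar rests on 5 genes. The germ cell identity list holds genes tied to meiosis, such as DMRTB1, and its bar is not independent of the split. The mitochondrial bar rests on ATP8 and on ND1, which entered through the high set only.

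Because treatment was mixed over the sets, the same difference can be formed within each treatment: controls 1 and 2 minus control 3, and testosterone 1 minus testosterone 2 and 3. A gene without overlap has the same sign in both by construction, so this adds nothing to the called genes, and 1 side of each difference is a single library. The median of the meiotic list was 1.25 within controls and 0.89 within testosterone samples. That of the piRNA list was 0.24 and 0.38, and that of the oocyte list -0.73 and -0.15. For stroma the 2 values were -0.16 and -0.23 and for granulosa genes -0.05 and -0.05. The split was set by the mean of the meiotic list, so its positive sign within both treatments was all but fixed. The oocyte median was negative within both, with a wider difference in controls, where control 3 stands alone. Whether the treatments differ in this was not tested.

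**Figure D5:**
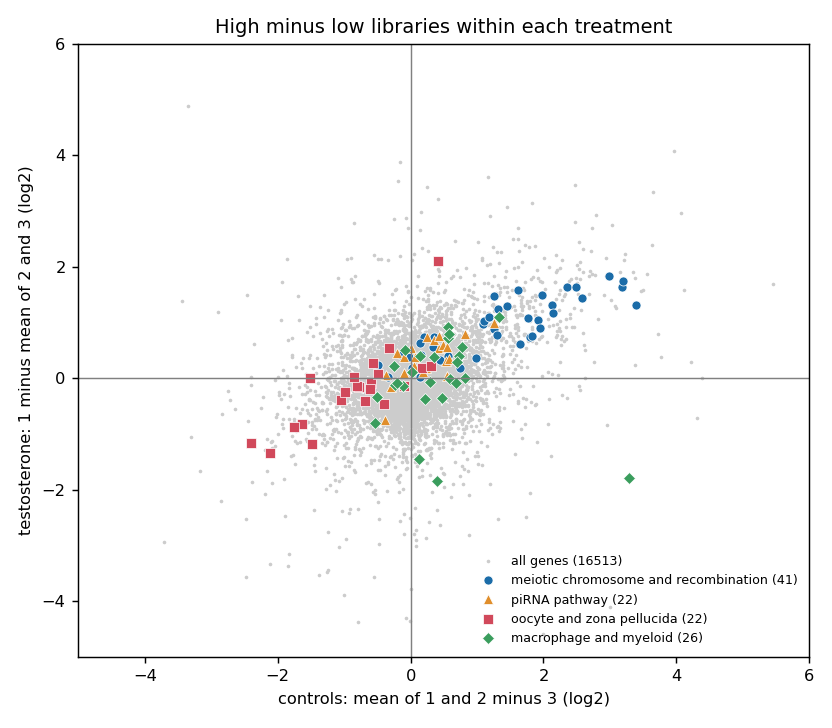
Difference in mean log2(value + 1) of controls 1 and 2 minus control 3 (horizontal) against testosterone 1 minus testosterone 2 and 3 (vertical), 1 point per gene for all 16513 genes, with 4 lists in colour. Meiotic genes lie mostly at the upper right, with list medians of 1.25 and 0.89, and oocyte genes mostly at the left, with medians of -0.73 and -0.15.

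The test the design allows is that of testosterone against control, which did not set the split. With limma and Benjamini-Hochberg adjustment, 2 of 16513 genes (0.0121%) were higher and 1 (0.00606%) lower in testosterone samples at adjusted p under 0.05, and 1611 genes had an unadjusted p under 0.05. None of the 528 genes called higher in the high set passed, with a lowest adjusted p of 0.352 by limma, and none of the 146 called lower, with a lowest adjusted p of 0.361 by limma. At unadjusted p under 0.05 the numbers were 12 and 9, DESeq2 called 1 of each, and edgeR called 0 of each. A called gene differs within each treatment by construction, because both treatments have libraries in both sets. That widens the spread within treatments, so these low numbers follow in part from the call and are not evidence on testosterone. The same applies to the meiotic list, which set the split. For the meiotic list the median of testosterone minus control was -0.36, and 0 of 41 genes passed by limma, DESeq2 or edgeR, with 2 at unadjusted p under 0.05. For the oocyte list the median was -0.18, and 0 of 22 passed by any of the 3 tools, with 0 at unadjusted p under 0.05. In the piRNA list 0 of 22 passed by any of them, with 5 at unadjusted p under 0.05 and a median of -0.36.

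The 3 genes that passed by limma were not on any list. CORIN, a protease that activates natriuretic peptide, had means of 859 normalized counts in controls and 3642 in testosterone samples, with a log2 difference of 2.09 (SE 0.18, limma adjusted p = 0.0218). EFHB rose by 1.83 (SE 0.16, limma adjusted p = 0.0218) and PLCXD3 fell by 1.74 (SE 0.17, limma adjusted p = 0.0308). DESeq2 called 178 genes higher and 84 lower, the same numbers as in the authors' own comparison. It called list members too: 9 for ribosomal proteins, 4 for stroma, 3 for smooth muscle and 2 for theca. The surface epithelium, nerve and apoptosis lists held 1 each. With the meiotic split as a covariate, 3 genes were higher and 0 lower by limma: PLCXD3 no longer passed (adjusted p = 0.0717) and LAMC3, a laminin chain on the stroma list, did (adjusted p = 0.0225, against 0.0554 without the covariate). LAMC3 stood at 3326, 2866 and 6899 in the high set and 2214, 6378 and 6488 in the low set, and the 3 testosterone samples were the highest. The number of genes past the threshold hung on single libraries, with 0 in either direction without control 1, testosterone 1 or testosterone 2, 1 higher and 0 lower without control 2, 3 higher and 0 lower without control 3, and 9 higher and 4 lower without testosterone 3.

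In the adult ovaries the summed level of meiotic genes lay below the fetal range. The 2 adult tables and the fetal table were normalized separately, so levels are given in RPM, reads scaled to a common total per library, as a description with no test. The 24 meiotic genes listed in both adult tables summed to 603 to 1053 RPM in the 6 fetal libraries and 88.7 to 304 in the 8 adult ones. The 17 oocyte genes listed in both summed to 1598 to 3724 in the fetal and 57.0 to 177 in the adult libraries, so neither range overlapped between ages. Of the 528 genes called higher, 248 (47.0%) were not listed in either adult table, against 37 of the 146 called lower (25.3%) and 1159 of all 16513 (7.02%). Among genes with a fetal mean of at least 50 normalized counts the shares were 35.9%, 12.2% and 2.40%, and under 50 they were 59.1%, 38.9% and 33.5%. This cut does not match the levels. The median was 55.5 normalized counts for genes called higher and 54.0 for those called lower, against 564 for all genes. The 528 also include 27 genes of the meiotic list, which set the split.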

How the data were processed

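RNA-seq of 6 fetal ovary libraries was used, with 8 adult libraries as a reference for levels. The authors used Trimmomatic 0.36 and STAR 2.5.2b, per the submitters' processing notes, and compared groups with DESeq2, per the series text. How reads were assigned to genes, and on which build and annotation, was not given in the sources used here. Deposited by the authors were 3 tables with a signal column per library, holding size-factor normalized counts, and columns of log2 fold change and of p-value from their own comparisons. In each library 100% of values divided by the worth of 1 read came out whole (tolerance 0.01), which gave the depth and the reads for DESeq2 and edgeR.

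The fetal table has 16513 genes with a lowest mean of 10.04, so a minimum mean of 10 removed none; 3928 have no name. Differences are of mean log2(value + 1), high minus low, with no p-value. Testosterone was tested with limma 3.58.1 (R 4.3.3, mean-variance trend, Benjamini-Hochberg adjusted p under 0.05) over all genes, and with DESeq2 1.42.0 and edgeR 4.0.16 as alternatives, checked on simulated data. Further alternatives were other pseudocounts, minimum means, folds and scalings, treatment or the split as a covariate, the sample number as a block, and leaving out each library. Members and the 24 gene lists (662 different genes) were chosen with earlier results of these data known.

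Genes were named by rule: the 3 given markers, up to 8 members per germ cell list and 6 called members per other list by gap (where none was called, the 2 of highest mean), the 20 named genes of widest gap per direction outside the 4 germ cell lists, and the 10 most like the meiotic mean. The gap is the lowest library of one set minus the highest of the other. Other genes in the text were chosen after their values were seen, to show list members that overlapped or roles on the same list. Of the genes this rule selects, 1 is not reported here. No sequences were analysed here.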

Additional observations from a re-analysis of the deposited data

How the results depend on the processing

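The number of genes called higher in the high meiotic libraries was 528, and it was 183 with a minimum mean of 100, 298 with a fold of at least 2 and 1426 by absence of overlap alone. The number called lower was 146, and it was 50, 58 and 877 under the same 3 settings. Leaving out each library in turn gave 565 to 788 higher and 224 to 594 lower. A smaller group needs less to avoid overlap, so these counts rise by construction. Pseudocounts of 0.5 and 5, quantile normalization (448 higher and 199 lower) and TMM scaling (533 and 143) stayed within 1.5 times. A minimum mean of 1 changed nothing, since the table holds no gene under 10. For testosterone, limma called 2 genes higher and 1 lower. DESeq2 called 178 and 84, edgeR 3 and 1, and limma with the split as a covariate 3 and 0. Leaving out each library gave 0 to 9 higher and 0 to 4 lower. With the sample number as a replicate block limma called 5 and 5. Whether the numbers pair the samples was not given. Deviations from the group means correlated at 0.13, 0.01 and 0.40 for numbers 1, 2 and 3, and testosterone 2 correlated better with control 1 (0.14) than with control 2. These correlations cannot decide it, with 3 libraries per group and with control 3 and testosterone 3 both in the low set. The cause of these differences was not tested, and the depth of 24.1 to 28.4 M reads limits genes with few counts most. No promoter sequences were used here, so the planned motif search was not run.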

Other observations

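Immediate early genes divided the fetal libraries in another way than meiotic genes, a pattern chosen after the values were seen. FOS, a transcription factor induced within minutes, had 2009, 596 and 4177 normalized counts in controls 1, 2 and 3. In testosterone 1, 2 and 3 its values were 5980, 3239 and 1005. FOSB had 358, 61.6 and 541 normalized counts among controls, with testosterone values of 720.5, 286 and 92.5. Control 2 and testosterone 3 were lowest for both genes, although they lie on opposite sides of the meiotic split.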
